A study of Mus musculus with 36 samples.

Results

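The Toll-like receptor genes Tlr1, Tlr2, Tlr3, Tlr4, Tlr6, Tlr7, Tlr9 and Tlr13 and the genes of the 2 co-receptors CD14 (Cd14) and MD-2 (Ly96) were followed through B cell to macrophage transdifferentiation (BMT). The 10 genes were chosen by name, all 10 are among the 40354 genes of the deposited count tables, and all 10 passed the filter on low counts that left 17277 genes for testing. B cells from the bone marrow of C57BL/6J mice carried a retrovirus encoding C/EBPα fused to the estrogen receptor (ER) hormone-binding domain together with human CD4, and hCD4+ cells were grown on inactivated mouse embryonic fibroblast feeders. C/EBPα is a transcription factor of myeloid cells, and its ER fusion becomes active when estradiol is added. The construct was wild type (WT) or had an arginine replaced by alanine (R35A) or by lysine (R35K). RNA was sequenced before induction (0 hpi) and after 1, 3, 6, 18 or 120 hours (hpi), with 2 biological replicates in each of the 18 groups of construct and time and thus 36 libraries. The 0 hpi cells of every group were infected with the same construct but not induced, all cells came from the same mouse strain, and the 120 hpi samples are labelled macrophages. The fusion protein was expressed from a retrovirus in a population of cells. The study describes removing feeders by adherence, and fibroblast marker RNA was counted in every group.

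Toll-like receptors (TLRs) are membrane proteins that bind microbial products and start inflammatory signalling through adaptor proteins at their cytoplasmic ends. TLR2 works with TLR1 or TLR6 on bacterial lipoproteins at the cell surface. TLR4 recognises lipopolysaccharide (LPS) as a complex with the secreted protein MD-2, to which CD14 hands the LPS. TLR3, TLR7, TLR9 and TLR13 sense nucleic acids inside endosomes, namely double-stranded RNA, single-stranded RNA, unmethylated CpG DNA and bacterial ribosomal RNA. Macrophages carry most of these receptors, and B cells are known for expressing TLR7 and TLR9.

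The libraries held between 13044456 and 23131776 counted reads, with a median of 15471229.5. Levels are given as CPM, the count of a gene scaled to its library's total, with TMM factors over the 36 libraries, and changes as log2 fold changes ± SE from 1 edgeR quasi-likelihood fit. Calls needed a change of at least 1.5-fold up or down and an adjusted p (Benjamini-Hochberg, over all 17277 genes) no higher than 0.05. The summed level of 7 pre-B cell markers was 2821 to 3125 CPM at 0 hpi and 63.0 to 137 CPM at 120 hpi, while that of 8 macrophage markers went from 66.4 to 73.5 CPM up to 19662 to 31878 CPM. The sum of 8 fibroblast markers, which the feeders express, was 1089 to 1182 CPM at 0 hpi, 1575 to 2817 CPM from 1 to 18 hpi and 124 to 452 CPM at 120 hpi. A sum of 7 granulocyte markers was 37.6 to 48.4 CPM at 0 hpi, 1.91 to 3.91 CPM at 1 hpi and at most 10.8 CPM later. The summed level of 6 dendritic cell markers was at most 197 CPM, at 120 hpi. The part of these shifts in the marker sums in the changes from 0 hpi was not tested. In bulk RNA, fewer cells of a type and less RNA per cell cannot be told apart.

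RefSeq promoter windows for GRCm38.p6 were at hand for 6 of the 10 genes, 8 windows in all, and their 250 bases before the start were searched on both strands for a C/EBP motif (TTGCNNAA) and a PU.1 motif (GAGGAA), PU.1 being the myeloid transcription factor that works beside C/EBPα. The C/EBP motif was in 2 of the 8 windows, against 9.56% of all 32851 windows of that length, and the PU.1 motif in 3 of 8, against 23.3% of all windows. Neither motif was in 3 of the 8 windows, and the motifs did not occur together in a window. The stretches shown are those of Tlr2 and Tlr13, which are among the genes that rose most within an hour, of Tlr9, the one gene that fell, and of the neighbours Tlr1 and Tlr6, which differed in their time course. Each runs 5′ to 3′ on the strand of the gene and leaves out bases of annotated exons (GENCODE vM21, mm10), with motif letters in capitals.
Tlr2, no match in the window, chr3:83841768-83841858 (- strand): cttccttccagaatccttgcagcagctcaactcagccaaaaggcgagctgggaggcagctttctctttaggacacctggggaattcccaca
Tlr13, PU.1 motif 83 to 78 bases before the start, chrX:106143025-106143203 (+ strand): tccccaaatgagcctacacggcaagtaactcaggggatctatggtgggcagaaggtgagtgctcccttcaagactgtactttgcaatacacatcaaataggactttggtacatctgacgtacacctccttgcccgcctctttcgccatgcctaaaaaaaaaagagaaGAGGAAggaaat
Tlr9, PU.1 motif 112 to 107 bases before the start, chr9:106222348-106222597 (+ strand): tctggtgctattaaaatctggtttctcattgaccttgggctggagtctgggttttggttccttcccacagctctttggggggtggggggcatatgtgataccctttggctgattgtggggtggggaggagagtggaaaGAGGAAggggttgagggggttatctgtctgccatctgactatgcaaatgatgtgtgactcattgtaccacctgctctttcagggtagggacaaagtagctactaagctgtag
Tlr1, PU.1 motif 23 to 18 bases before the start, chr5:64933564-64933808 (- strand): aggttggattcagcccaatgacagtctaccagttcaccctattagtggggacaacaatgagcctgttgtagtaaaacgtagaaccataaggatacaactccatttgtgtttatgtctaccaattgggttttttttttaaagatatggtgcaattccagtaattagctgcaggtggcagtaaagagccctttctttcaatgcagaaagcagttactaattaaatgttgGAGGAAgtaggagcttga
Tlr6, C/EBP motif on the opposite strand 89 to 82 bases before the start, chr5:64959167-64959416 (- strand): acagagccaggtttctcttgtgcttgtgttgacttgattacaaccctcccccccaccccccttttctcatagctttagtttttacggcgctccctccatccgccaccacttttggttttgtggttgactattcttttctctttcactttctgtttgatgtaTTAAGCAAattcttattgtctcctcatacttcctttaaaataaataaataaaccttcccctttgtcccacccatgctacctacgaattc
The Tlr6 stretch lies within the gene, between annotated exons. Another Tlr6 window, with its stretch at chr5:64960098-64960298 next to the annotated 5′ end of the gene, held neither motif and is not shown. A further window counted above held neither motif and is also not shown. The window of Tlr3 held the C/EBP motif on the opposite strand 95 to 88 bases before the start. It was counted above but is not shown, since its base farthest from the start already lies in an annotated exon of the gene. These matches describe the letters of the windows and no binding was measured here.

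Before induction the nucleic acid sensor Tlr9 and the LPS co-receptor Ly96 led the 10 genes. Per kilobase of annotated exon, the WT cells at 0 hpi had 7.82 CPM per kb of Tlr9 and 6.94 of Ly96, followed by 2.34 of Tlr4, 1.75 of Cd14 and 1.67 of Tlr2. The other 5 genes lay between 0.209 CPM per kb for Tlr1 and 0.646 for Tlr6. At 120 hpi the order was another. Cd14 and Tlr2 stood at 823 and 737 CPM per kb in WT cells, Tlr13 at 182, Tlr7 at 78.4 and Tlr3, the lowest, at 2.09. Between R35A and WT cells no gene was called before induction: 0% of the 17277 genes were called by edgeR, 1624 genes had an unadjusted p of at most 0.05, DESeq2 called 1 gene and limma on the log2 values called 19. The 10 genes differed by log2 values between -0.353 and 0.389 there, with a smallest unadjusted p of 0.176.

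All 10 genes were higher at 120 hpi than at 0 hpi with every construct. Before that time they differed in when a rise was first called, and Tlr9 fell first. For Tlr1, Tlr3 and Tlr4 the first call was later in WT cells than in both mutants. The first called Tlr3 values were 0.79 in WT at 6 hpi and 0.64 in R35A at 3 hpi. Leaving out single libraries lowered them to 0.65 and 0.40. At 6 hpi the R35A value of Tlr3 was 0.44 and not called, and at 18 hpi it was 1.08, beside 1.29 in WT. The Tlr3 change in R35A differed from that in WT by 0.02, 0.32, -0.35 and -0.20 at 1, 3, 6 and 18 hpi. None of these differences was called. In WT cells 5 of the 10 genes rose within 1 hpi (10.0% of all genes tested), 4 after 3 h (12.0%), 6 after 6 h (15.5%), 7 after 18 h (23.7%) and 10 after 120 h (25.2%). Tlr9 was the 1 gene that fell at 1, 3, 6 and 18 hpi, where 9.72%, 11.3%, 14.2% and 23.0% of all genes fell, and none of the 10 was lower at 120 hpi (36.5% of all genes). In R35A cells 7, 8, 7, 8 and 10 genes rose at these 5 times, against 18.9%, 18.7%, 18.9%, 21.5% and 26.5% of all genes. Tlr9 again fell at the first 4 of these times, so that 8 of the 10 genes changed one way or the other at 1 hpi against 37.1% of all genes, while 18.0%, 18.5% and 21.0% of all genes fell at 3, 6 and 18 hpi, and none of the 10 was lower at 120 hpi (35.3%). In R35K cells 8 genes rose at each of 1, 3, 6 and 18 hpi and 10 at 120 hpi, against 16.4%, 16.7%, 17.6%, 19.3% and 26.7% of all genes. Tlr9 fell at 1 and 18 hpi, when 15.4% and 19.2% of all genes fell, and no member fell at 3, 6 or 120 hpi (15.1%, 15.6% and 35.5%).

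The median log2 change of the 10 genes at 1 hpi was 0.67 in WT, 2.48 in R35A and 3.02 in R35K cells, beside -0.04, 0.01 and 0.00 over all genes tested. At 120 hpi the medians were 5.49, 5.42 and 5.37, beside -0.23, -0.18 and -0.20. From 18 to 120 hpi all 10 genes rose in each construct, against 30.4% of all genes in WT, 27.1% in R35A and 25.6% in R35K cells. That last step was largest in WT cells for 9 of the 10 genes, Tlr3 being the exception.

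**Figure D1:**
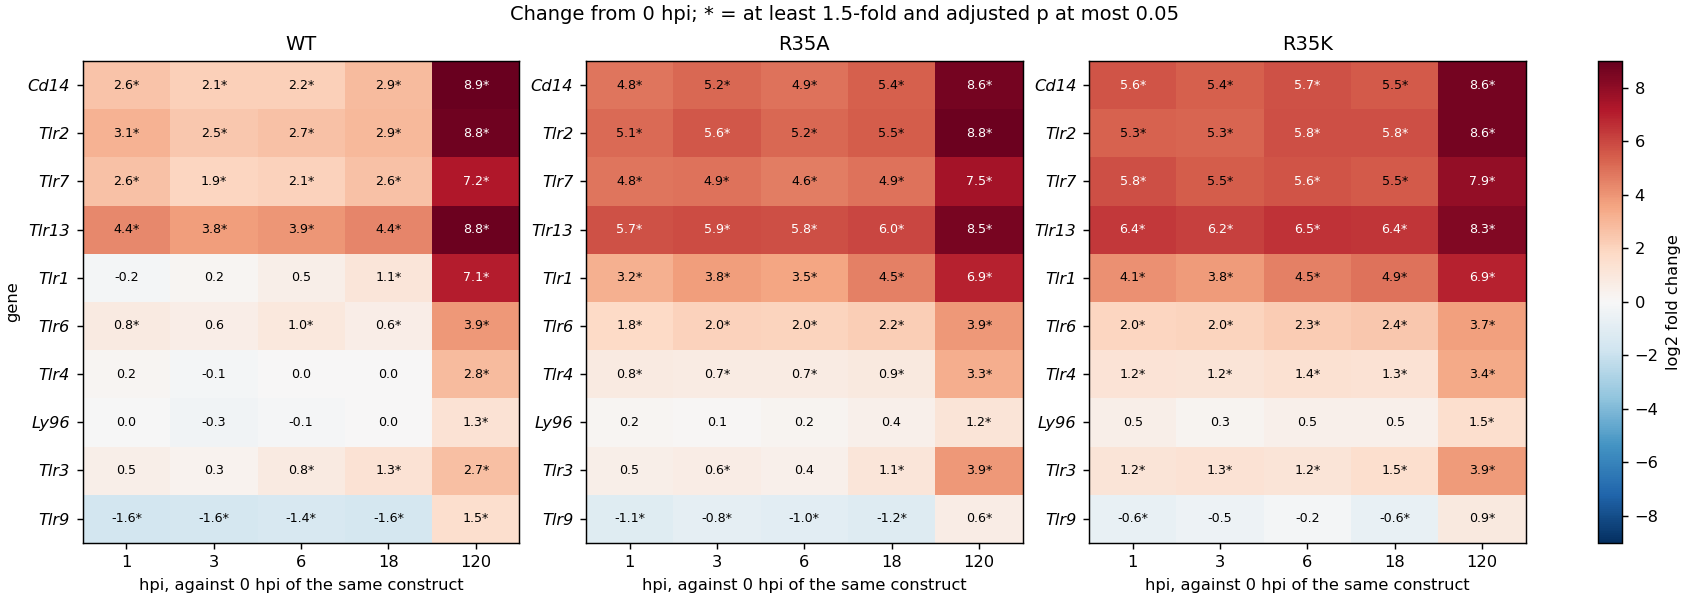
Log2 fold change of the 10 genes (rows) at 5 times after induction (columns, in hpi) against 0 hpi of the same construct, one panel per construct, with an asterisk for a called change. Cd14, Tlr2, Tlr7 and Tlr13 are red from 1 hpi on in every panel, Tlr1 is near 0 in WT cells until 6 hpi but at 3.18 and 4.09 at 1 hpi in R35A and R35K cells, and Tlr9 is below 0 before 120 hpi.

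Cd14, Tlr2, Tlr7 and Tlr13 rose within an hour of induction with all 3 constructs. Each rose again between 18 and 120 hpi. In WT cells the LPS co-receptor Cd14 was at 3.63 and 2.42 CPM in the 2 libraries at 0 hpi, 19.3 and 17.4 after 1 h, 13 and 14.0 after 3 h, 13.2 and 14.1 after 6 h, 21.8 and 22.7 after 18 h and 1423 and 1427 after 120 h. The R35A libraries held 2.62 and 2.61, 75.7 and 73.3, 93.8 and 96.3, 80.0 and 77.8, 107 and 111 and 1022 and 994 CPM at the same times. For R35K the values were 2.44 and 3.22, 143 and 139, 117 and 114, 148 and 146, 131 and 124 and 1146 and 1050.1 CPM. From 1 to 18 hpi every R35A library was above every WT library and every R35K library above every R35A library, whereas at 120 hpi the WT libraries were the highest. The change from 0 to 1 hpi was 2.59 ± 0.12 on the log2 scale in WT (adjusted p = 1.54e-26), 4.83 ± 0.09 in R35A (adjusted p = 1.43e-45) and 5.64 ± 0.08 in R35K cells (adjusted p = 1.18e-50). The R35A change exceeded the WT change by 2.24 ± 0.19 (adjusted p = 1.98e-14) and the R35K change exceeded it by 3.06 ± 0.20 (adjusted p = 4.01e-19). Cd14 and Tlr2 are also on the study's list of macrophage signature genes, so their rise is not independent evidence for that list.

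Tlr2, the lipoprotein receptor, followed the same course. WT cells went from 5.01 and 5.06 CPM at 0 hpi to 42.9 and 45.3 at 1 hpi, dipped to 27.6 and 27.8 at 3 hpi, held 32.4 and 31.1 and 38.6 and 37.0 at 6 and 18 hpi and reached 2203 and 2243 at 120 hpi. With R35A the pairs were 4.83 and 5.22, 176 and 169.9, 249 and 242, 174 and 185, 226 and 223 and 2291 and 2367 CPM. With R35K they were 5.63 and 5.49, 217 and 221, 214 and 215, 317 and 307, 313 and 313 and 2211 and 2212 CPM. The mutant libraries did not overlap the WT libraries at 1, 3, 6 or 18 hpi, and at 120 hpi the R35K values lay inside the range of the WT values. The 1 hpi change was 3.13 ± 0.07 in WT, 5.10 ± 0.06 in R35A and 5.30 ± 0.06 in R35K cells on the log2 scale. The R35A excess over WT was 1.97 ± 0.12 at 1 hpi (adjusted p = 6.67e-21) and 0.06 ± 0.11 at 120 hpi (adjusted p = 0.832).

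The endosomal RNA sensor Tlr7 also rose at once and again by 120 hpi. WT libraries held 1.58 and 2.85 CPM at 0 hpi, 13.1 and 14.1 at 1 hpi, 8.48 and 8.0, 10.1 and 8.78 and 12.2 and 14.7 at 3, 6 and 18 hpi and 307 and 333 at 120 hpi. R35A libraries held 1.81 and 1.65, 46.4 and 49.6, 50.1 and 51.7, 39.2 and 42.8, 52.8 and 51.4 and 295 and 332 CPM. R35K libraries held 1.22 and 1.89, 86.4 and 87.0, 69.7 and 69.0, 77.7 and 77.6, 68.3 and 71.0 and 356 and 382 CPM. The order WT, R35A, R35K held without overlap at 1, 3, 6 and 18 hpi, and at 120 hpi the R35A values overlapped those of WT while both R35K values lay above them. At 1 hpi the log2 change was 2.62 ± 0.17, 4.79 ± 0.13 and 5.81 ± 0.12 for WT, R35A and R35K. The R35K change exceeded the R35A change by 1.01 ± 0.29 at 1 hpi (adjusted p = 0.00741) and by 1.08 ± 0.29 at 6 hpi (adjusted p = 0.00433). The 1 hpi value was 0.95 without the first R35A library and 0.72 without the first R35K library at 0 hpi, the 6 hpi value was 0.78 without the latter, and none of these was called.

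Tlr13, the sensor of bacterial ribosomal RNA, showed the largest change of the 10 genes at 1 hpi in each construct, 4.36 ± 0.12 in WT, 5.75 ± 0.09 in R35A and 6.36 ± 0.08 in R35K cells on the log2 scale. In WT cells it went from 1.51 and 1.92 CPM through 34.4 and 36.1, 25.1 and 22.3, 25.7 and 27.3 and 36.8 and 36.7 CPM to 760.1 and 804 CPM at 120 hpi. The R35A pairs were 1.88 and 2.02, 105 and 107, 122 and 111, 109 and 107, 130.1 and 127 and 686 and 751 CPM. The R35K pairs were 2.44 and 2.27, 198 and 189, 176 and 169, 212 and 208, 205 and 203 and 751 and 790.2 CPM. The constructs separated at 1, 3, 6 and 18 hpi in the order WT, R35A, R35K, whereas at 120 hpi the R35K values overlapped those of WT and both R35A values lay below them. The excess over WT at 1 hpi was 1.39 ± 0.24 for R35A (adjusted p = 1.06e-05) and 2.0 ± 0.24 for R35K (adjusted p = 7.41e-10). The fibroblast marker sum also rose between 0 and 1 hpi, to 2239.7 to 2252 CPM in WT, 2503 to 2511 in R35A and 2043 to 2107 in R35K cells. The macrophage marker sum at 1 hpi was 838 to 851, 3663 to 3676 and 7841 to 7971 CPM in WT, R35A and R35K cells, and the part of other cells in these results was not tested.

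**Figure D2:**
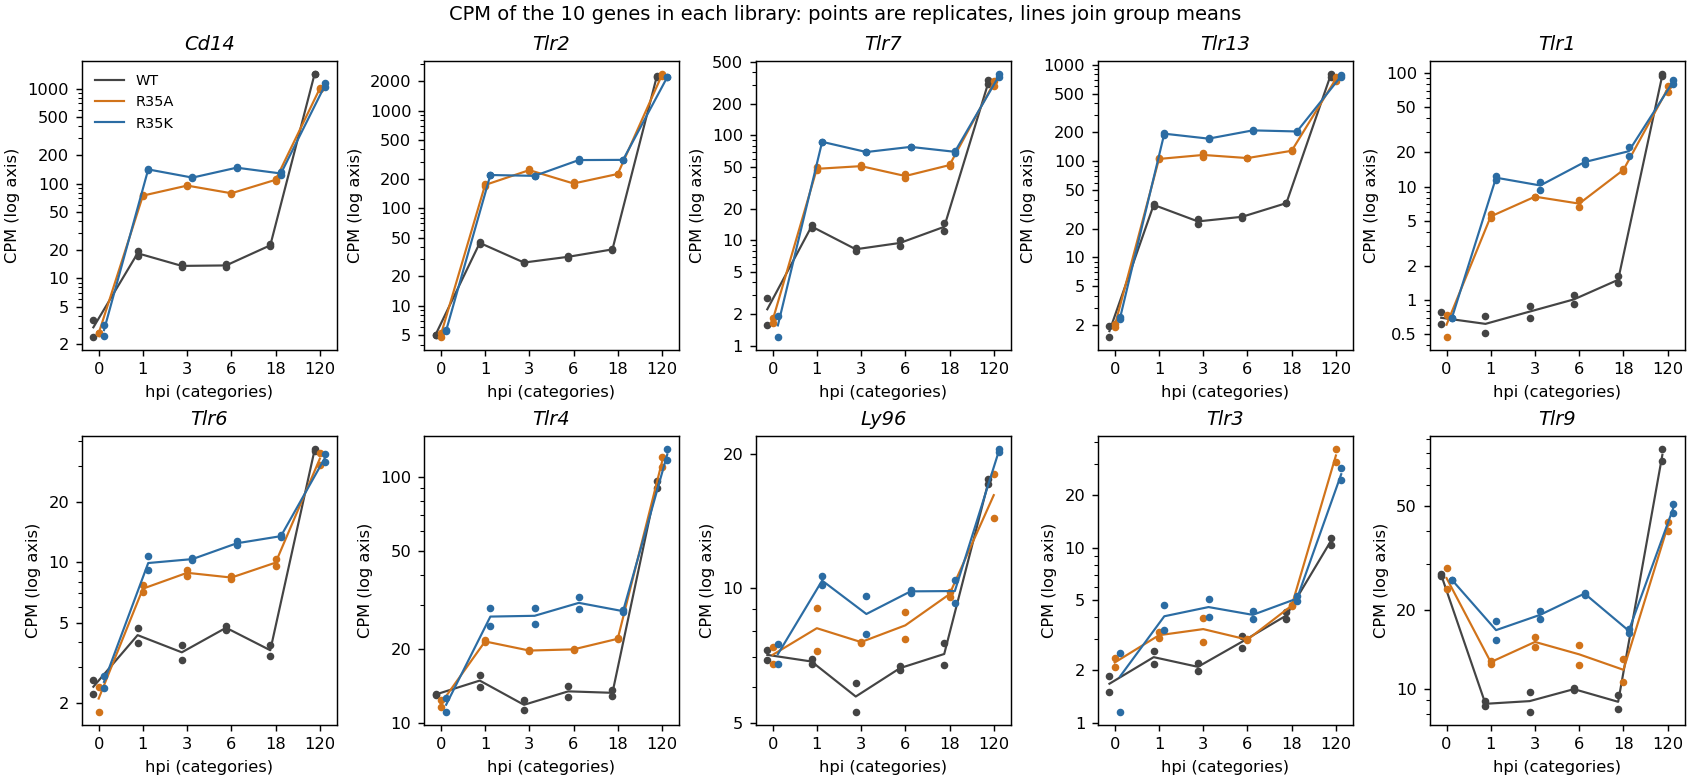
CPM (log axis) of each of the 10 genes at each of the 6 times (in hpi), drawn as evenly spaced categories, with 1 point per library and lines joining the group means of WT (grey), R35A (orange) and R35K (blue) cells. The 3 lines start close to each other at 0 hpi, and at 1 hpi Tlr13 stands at 35.2, 106 and 194 CPM in WT, R35A and R35K cells.

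Tlr1 and Tlr6, whose products both pair with TLR2, are neighbours on the minus strand of chromosome 5 (mm10, Tlr1 at 64924679 to 64933563 and Tlr6 at 64952031 to 64960097), and they took different courses in WT cells. Tlr1 was near the lower end of what could be counted at 0 hpi, with 9 and 11 reads in WT, 11 and 9 in R35A and 12 and 11 in R35K libraries. In WT cells it was 0.617 and 0.783 CPM at 0 hpi, 0.723 and 0.516 at 1 hpi, 1.11 and 0.921 at 6 hpi, 1.40 and 1.62 at 18 hpi and 94.4 and 97.5 at 120 hpi. Its change was not called before 18 hpi, when it was 1.11 ± 0.35 on the log2 scale (adjusted p = 0.00414). Without the first WT library at 0 hpi this was 0.95 and not called. In the mutants Tlr1 rose at once, to 5.24 and 5.68 CPM in R35A and 11.5 and 12.5 CPM in R35K cells at 1 hpi, and stood at 14.2 and 13.8 and 22.4 and 18.5 CPM at 18 hpi. The 1 hpi changes were 3.18 ± 0.25 (adjusted p = 9.05e-17) and 4.09 ± 0.21 (adjusted p = 7.02e-25). Tlr1 had the largest excess of a mutant over WT at 1 hpi among the 10 genes, 3.37 ± 0.55 for R35A and 4.28 ± 0.55 for R35K (adjusted p = 1.06e-06 and 4.59e-09). At 120 hpi the mutant libraries were below the WT libraries, at 67.5 and 77.4 CPM in R35A and 80.7 and 86.1 CPM in R35K cells, a difference that was under 1.5-fold for R35A against WT (-0.40 ± 0.06).

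Per kilobase, Tlr6 was above Tlr1 in WT cells until 18 hpi and below it at 120 hpi. In WT cells it moved from 2.61 and 2.21 CPM to 4.73 and 3.95 after 1 h, 3.25 and 3.88 after 3 h, 4.84 and 4.61 after 6 h, 3.89 and 3.42 after 18 h and 36.3 and 35.6 after 120 h. R35A cells held 1.81 and 2.40, 7.08 and 7.69, 9.14 and 8.58, 8.27 and 8.50, 9.56 and 10.3 and 30.5 and 34.7 CPM, and R35K cells 2.38 and 2.71, 10.7 and 9.12, 10.4 and 10.3, 12.7 and 12.1, 13.3 and 13.6 and 34.6 and 31.6 CPM. The rise at 1 hpi was 0.84 ± 0.19 in WT, 1.79 ± 0.16 in R35A and 1.96 ± 0.15 in R35K cells, all called, and the WT change at 3 hpi (0.57 ± 0.20) lay just under 1.5-fold. The WT change at 18 hpi (0.59 ± 0.20) was 0.48 and not called without the second WT library at 0 hpi, and 0.50 without the first at 18 hpi. Per kilobase, WT cells had 0.209 CPM of Tlr1 and 0.646 of Tlr6 at 0 hpi, and 28.7 and 9.65 at 120 hpi. The transcripts of the 2 genes share 454 windows of 50 bases, the read length, which is part of the 15.4% of Tlr1 windows and 12.3% of Tlr6 windows found in another gene, so the values of this pair are uncertain to that extent.

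Tlr4 and Ly96, which together form the LPS receptor, were both detected before induction, and neither was called in WT cells until 120 hpi. The 0 hpi libraries also held the fibroblast marker sum given above, and the share of feeder RNA in these levels was not tested. WT libraries held 12.9 and 13.1 CPM of Tlr4 at 0 hpi, 14.0 and 15.6 after 1 h, 12.4 and 11.2 after 3 h, 14.1 and 12.7 after 6 h, 12.8 and 13.6 after 18 h and 89.9 and 96.3 after 120 h. No change of Tlr4 was called in WT cells up to 18 hpi, with log2 values between -0.14 and 0.19. In R35A cells it was 11.5 and 12.4 CPM at 0 hpi, 21.2 and 21.6, 19.6 and 19.7, 19.7 and 20.0 and 22.0 and 21.8 from 1 to 18 hpi and 109 and 121 at 120 hpi. In R35K cells the pairs were 11.1 and 12.6, 24.7 and 29.3, 29.2 and 25.2, 29.0 and 32.4, 28.1 and 28.7 and 118 and 129.6 CPM. Tlr4 rose at 1 hpi by 0.84 ± 0.10 in R35A (adjusted p = 6.13e-11) and 1.2 ± 0.10 in R35K cells (adjusted p = 1.93e-16). All mutant libraries were above every WT library at 1, 3, 6 and 18 hpi, by less than for Cd14 or Tlr2. The excess over WT at 1 hpi was 0.64 ± 0.15 for R35A (adjusted p = 0.00033), which was 0.57 and not called without the first WT library at 1 hpi, and 1.00 ± 0.15 for R35K (adjusted p = 1.06e-07).

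Ly96, the gene of MD-2, changed least of the 10 genes over the whole course. WT cells held 7.27 and 6.91 CPM at 0 hpi, 6.77 and 6.93 at 1 hpi, 7.53 and 6.71 at 18 hpi and 17.5 and 17.1 at 120 hpi. R35A cells held 6.78 and 7.40, 9.04 and 7.23, 9.82 and 9.57 and 14.3 and 18.0 CPM at these times, and R35K cells 7.48 and 6.75, 10.6 and 10.2, 10.5 and 9.25 and 20.5 and 20.2 CPM. No change up to 18 hpi was called in any construct, the log2 values lying between -0.31 and 0.54. The rise at 120 hpi was 1.29 ± 0.12, 1.19 ± 0.12 and 1.51 ± 0.11 in WT, R35A and R35K cells (adjusted p = 6.94e-14, 1.77e-13 and 5.58e-18). The 3 genes of LPS recognition therefore moved by different amounts. Per kilobase, WT cells had 1.75 CPM of Cd14, 2.34 of Tlr4 and 6.94 of Ly96 at 0 hpi, and 823, 16.8 and 17.0 at 120 hpi.

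Tlr3, the receptor for double-stranded RNA, was the 1 gene called higher at 120 hpi in the mutants than in WT cells. It was low before induction, at 1.85 and 1.5 CPM in WT, 2.35 and 2.08 in R35A and 1.16 and 2.52 in R35K cells, the last pair coming from 20 and 40 reads. In WT cells Tlr3 went through 2.17 and 2.58, 1.98 and 2.20, 2.68 and 3.13 and 4.27 and 3.94 CPM to 10.3 and 11.4 CPM at 120 hpi. R35A cells had 3.29 and 3.04, 2.90 and 3.97, 2.95 and 3.02, 4.69 and 4.66 and 30.8 and 36.5 CPM, and R35K cells 3.41 and 4.72, 5.12 and 4.04, 3.90 and 4.38, 4.96 and 5.29 and 24.2 and 28.4 CPM. The change of Tlr3 in R35A cells at 3 hpi (0.64 ± 0.23) was 0.40 and not called without the second R35A library of that time. Of the differences between mutants and WT up to 18 hpi only that of R35K at 3 hpi was called (0.98 ± 0.37, adjusted p = 0.0441). It was not called by DESeq2 or without the low-count filter (0.96), and was 0.51 without the first R35K library at 0 hpi. At 120 hpi all 4 mutant libraries were above both WT libraries. The R35A level at 120 hpi exceeded the WT level by 1.64 ± 0.12 on the log2 scale (adjusted p = 2.16e-17). In the change from 0 hpi, R35A exceeded WT by 1.25 ± 0.32 (adjusted p = 0.00157) and R35K exceeded WT by 1.16 ± 0.33 (adjusted p = 0.00566). Without the first R35K library at 0 hpi the latter was 0.69 and not called, and without the first WT library at 0 hpi the 2 values were 1.09 and 1.00 and not called. The fibroblast marker sum at 120 hpi moved with this result, at 124 to 146 CPM in WT, 434 to 452 in R35A and 322 to 384 in R35K cells, with Lum at 3 counts or fewer in all 3 constructs and Postn in R35K cells. The part of feeder RNA in the Tlr3 result was not tested. Tlr3 overlaps the antisense gene Gm45542, and the strand setting of the counts is not given in the sources used here.

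Tlr9, the CpG DNA receptor that B cells use, was the 1 gene of the 10 that fell before it rose. WT libraries held 27.0 and 27.4 CPM at 0 hpi, 8.54 and 8.94 after 1 h, 8.16 and 9.74 after 3 h, 9.88 and 10.0 after 6 h, 8.36 and 9.44 after 18 h and 82.3 and 74.5 after 120 h. R35A libraries held 24.1 and 28.9, 12.4 and 12.8, 14.4 and 15.7, 12.3 and 14.7, 10.6 and 13 and 40.0 and 43.5 CPM. R35K libraries held 26.0 and 26.1, 15.3 and 18, 19.8 and 18.5, 23.3 and 22.9, 17.0 and 16.3 and 46.8 and 50.6 CPM. At 1, 3, 6 and 18 hpi both WT libraries were below all 4 mutant libraries, and at 120 hpi both were above them, while the R35K libraries were above the R35A libraries at each of these times. The change at 1 hpi was -1.63 ± 0.11 in WT (adjusted p = 1.22e-19), -1.08 ± 0.09 in R35A (adjusted p = 5.65e-15) and -0.64 ± 0.09 in R35K cells (adjusted p = 2.82e-08). At 6 hpi the R35K value was -0.18 ± 0.09 (adjusted p = 0.0722), against -1.45 ± 0.10 in WT cells, and the R35K change exceeded the WT change by 1.27 ± 0.14 (adjusted p = 2.53e-11). The R35A change exceeded the WT change by 0.78 ± 0.14 at 3 hpi, which was called. The differences of 0.56, 0.48 and 0.44 at 1, 6 and 18 hpi were not called. They were under 1.5-fold, with edgeR adjusted p = 0.00192, 0.00775 and 0.0222. At 1 hpi the difference was called with DESeq2 size factors (0.59), with DESeq2 (0.59) and with limma (0.60). Between R35K and R35A the difference was called at 6 hpi (0.79 ± 0.13) and not at 1, 3 or 18 hpi. At 120 hpi the R35A level was lower, differing from the WT level by -0.91 ± 0.07 on the log2 scale (adjusted p = 1.12e-15). The pre-B cell marker sum at 1 hpi was 1406 CPM in both WT libraries, 433 to 436 in R35A and 779 to 787 in R35K cells, so it was highest where Tlr9 was lowest, and its part in the result was not tested. The rise of Tlr9 in R35A cells at 120 hpi (0.65 ± 0.08) was 0.54 and 0.51, and not called, without the first R35A library at 0 hpi or the second at 120 hpi. The smaller rise in R35K than in WT cells (-0.63 ± 0.11) was -0.55 without the first WT library and -0.57 without the first R35K library at 120 hpi, and not called in either case.

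Over the first 18 hours most of these genes rose further with both mutants than with WT, and at 120 hpi differences were called for Tlr3 and Tlr9 alone. The change in R35A cells exceeded that in WT cells for 7 genes at 1 hpi (5.97% of all genes tested), 8 after 3 h (5.81%), 7 after 6 h (4.19%) and 7 after 18 h (5.62%). None of the 10 was called in the other direction at these times, where 7.89%, 6.92%, 5.86% and 2.70% of all genes were. At 120 hpi Tlr3 was the 1 gene with a larger R35A change (9.63% of all genes) and Tlr9 the 1 gene with a smaller one (4.58%). Against the WT level at 120 hpi, too, Tlr3 alone was higher (12.1%) and Tlr9 alone lower (6.37%) in R35A cells. The median of the 10 differences was 1.17 at 1 hpi and -0.03 at 120 hpi, beside 0.03 and 0.07 over all genes.

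R35K cells exceeded WT cells in the change of 9 genes at 1 hpi (6.84% of all genes tested), 9 after 3 h (6.14%), 8 after 6 h (7.66%) and 8 after 18 h (8.91%). In the other direction none of the 10 was called before 120 hpi (5.08%, 3.87%, 4.53% and 4.42% of all genes). At 120 hpi Tlr3 rose further in R35K than in WT cells (7.51%) and Tlr9 less far (2.63%). Ly96 at 1 hpi (0.59 ± 0.19) and Tlr3 at 3 hpi (0.98 ± 0.37) were not called by DESeq2 (0.57 and 0.98). Nor were they called without the low-count filter (0.53 and 0.96), and Ly96 was not called with DESeq2 size factors (0.57). Ly96 was at 0.52 without the second R35K library at 0 hpi, and Tlr3 at 0.51 without the first. The median difference was 1.56 at 1 hpi and -0.17 at 120 hpi, beside 0.01 and 0.03 over all genes. The R35K libraries form a count table of their own, so a difference in how the tables were made and the construct cannot be told apart.

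Between the mutants fewer differences were called. Cd14 and Tlr7 rose further in R35K than in R35A cells at 1 hpi, which is 2 of 10 genes against 4.15% of all genes, and the change was higher in R35K cells for 6 genes at 6 hpi (4.69%), namely Cd14, Tlr2, Tlr4, Tlr7, Tlr9 and Tlr13. By edgeR none of the 10 was called higher at 3, 18 or 120 hpi (2.25%, 2.26% and 0.724% of all genes; with unadjusted p 2 at 3 hpi, and with DESeq2 0), nor lower at 1, 3, 18 or 120 hpi (1.68%, 0.764%, 1.19% and 0.886%). At 6 hpi the 6 were also all that differed in either direction, against 5.89% of all genes. Without the first R35K library at 0 hpi, 0 of the 10 genes were called at 1 hpi and 2 at 6 hpi. Tlr13 at 6 hpi (0.69 ± 0.21) also lost its call with DESeq2 size factors (0.63). The values of the 2 mutants share no control libraries, while each mutant was set against the same WT libraries.

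**Figure D3:**
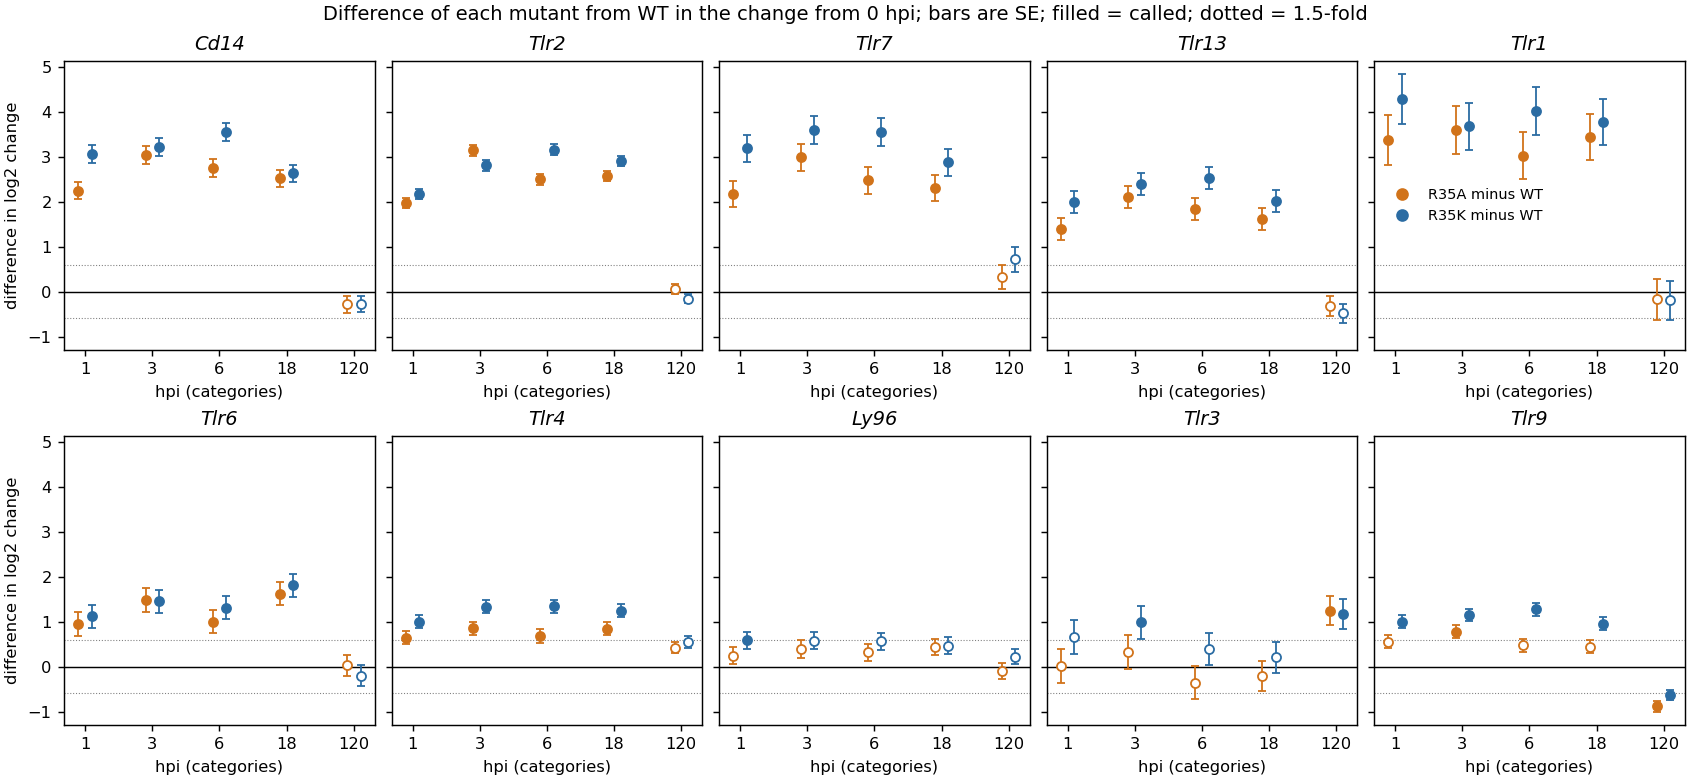
Difference between each mutant and WT in the log2 change from 0 hpi (vertical axis) at 5 times after induction for the 10 genes, with R35A in orange and R35K in blue, bars for the SE, filled points for called differences and dotted lines at 1.5-fold. Tlr1 shows the largest differences, 3.37 and 4.28 at 1 hpi, and Tlr3 and Tlr9 are the panels with filled points at 120 hpi, above 0 for Tlr3 and below 0 for Tlr9.

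R35A cells at 1 hpi were also set beside WT cells at 18 hpi. Both R35A libraries at 1 hpi were above both WT libraries at 18 hpi for 8 genes, against 38.4% of all genes tested, and below them for Tlr3, against 26.7%, while Ly96 overlapped. The 8 include Tlr9, which had fallen in both groups and less far in R35A cells at 1 hpi (-1.08) than in WT cells at 18 hpi (-1.61). Tlr2 was at 173 CPM in R35A cells at 1 hpi and 37.8 in WT cells at 18 hpi, and Tlr7 at 48.0 and 13.5 CPM.

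Set against the 120 hpi level of the same construct, the early rise covered a small part of the way in WT cells and more of it in the mutants. At 1 hpi Cd14 stood at 1.29% of its 120 hpi mean in WT, 7.39% in R35A and 12.8% in R35K cells. The same shares were 1.98%, 7.43% and 9.90% for Tlr2, 4.25%, 15.3% and 23.5% for Tlr7, and 4.50%, 14.7% and 25.1% for Tlr13. Tlr1 went from 0.730% at 0 hpi to 1.58% at 18 hpi in WT cells, and from 0.840% to 19.4% in R35A and from 0.833% to 24.5% in R35K cells. Ly96 began at 41.0% of its 120 hpi mean in WT cells. Tlr9 dropped from 34.7% to 11.1% within 1 hpi in WT cells and from 53.6% to 34.4% in R35K cells.

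**Figure D4:**
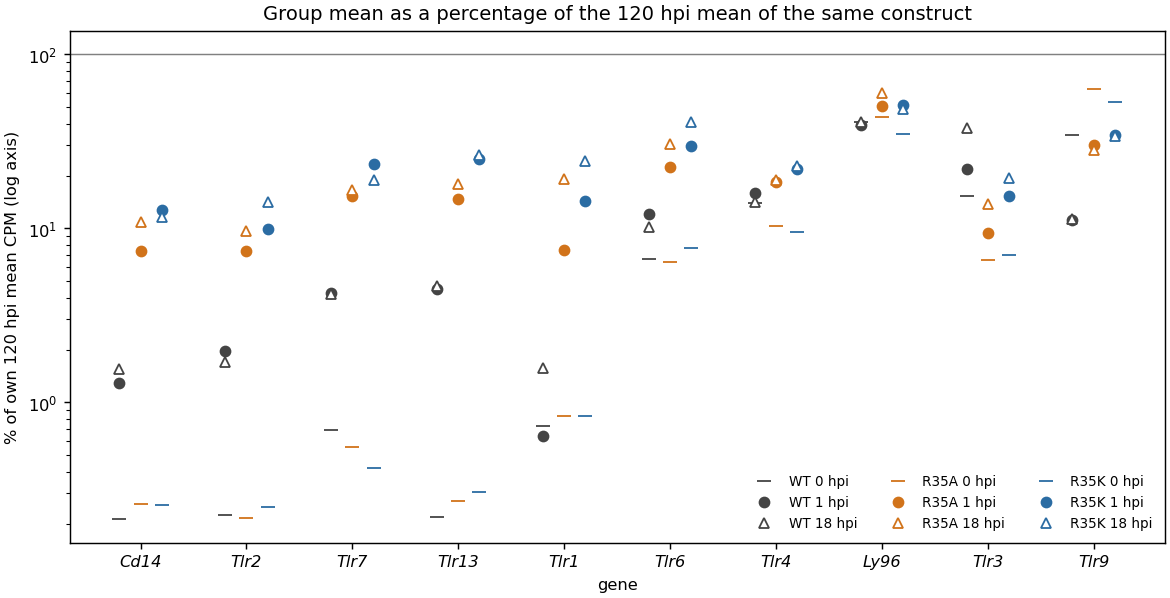
Mean CPM of each gene at 0 hpi (dashes), 1 hpi (filled circles) and 18 hpi (open triangles) as a percentage of the 120 hpi mean of the same construct (log axis), with WT in grey, R35A in orange and R35K in blue. For Cd14, Tlr2, Tlr7 and Tlr13 the coloured circles at 1 hpi sit above the grey ones, for example at 25.1% against 4.50% for Tlr13, and for Tlr9 the 0 hpi dashes lie above the other marks.

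Across the 18 groups the lowest mean of Cd14, Tlr1, Tlr2 and Tlr6 was in R35A cells at 0 hpi, and the highest mean was in a 120 hpi group for all 10 genes. The span from the lowest to the highest group mean was 545-fold for Cd14, 464-fold for Tlr2, 456-fold for Tlr13, 237-fold for Tlr7 and 158-fold for Tlr1. It was 20.1-fold for Tlr3, 17.1-fold for Tlr6, 10.5-fold for Tlr4, 8.98-fold for Tlr9 and 3.56-fold for Ly96. With the groups in order of their mean, the replicates of 2 of the 17 neighbouring pairs overlapped for Tlr13, 3 for Cd14, 4 each for Tlr1 and Tlr2 and 6 for Tlr7, against 8 each for Tlr4, Tlr6 and Tlr9, 11 for Tlr3 and 12 for Ly96. The genes most like each of the 10 were taken by Pearson's r of mean log2(CPM + 2) over the 18 groups, with no test. They were Ms4a6c, C3ar1 and Ctsh for Cd14 (r = 0.998, 0.997 and 0.996), Pirb, March1 and Sirpb1c for Tlr2 (r = 0.998, 0.996 and 0.996), Cd300c2, C3ar1 and Trem2 for Tlr7 (r = 0.998, 0.998 and 0.997) and Fcer1g, Tyrobp and Fyb for Tlr13 (r = 0.999, 0.998 and 0.998). For others of the 10 they were Pld4, Lat2 and Slc15a3 for Tlr1 (r = 0.994, 0.993 and 0.992), Susd3, Rab8b and Naip6 for Tlr6 (r = 0.994, 0.994 and 0.994), Gusb, Nlrp1c-ps and Wdr41 for Tlr4 (r = 0.996, 0.995 and 0.995) and Wdr7, Gm10521 and Dhdh for Ly96 (r = 0.984, 0.981 and 0.980). The closest genes were Agpat3, Marco and Gm3716 for Tlr3 (r = 0.993, 0.988 and 0.987) and Igsf9, Fgd2 and 4732496C06Rik for Tlr9 (r = 0.973, 0.965 and 0.963), the last having the lowest values of the 10. The 18 points share the same libraries, and all 10 genes were highest at 120 hpi.

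The remaining genes of the TLR family were read from the same fit. Of Tlr5, Tlr8, Tlr11, Tlr12 and the receptor pair Cd180 and Ly86, a homologue of the TLR4 and MD-2 pair, 5 of 6 passed the low-count filter, and in WT cells 4 rose and 1 fell by 120 hpi (median 4.68). Tlr8, a relative of Tlr7, had 1 and 3 reads in WT, 1 and 1 in R35A and 5 and 3 in R35K libraries at 0 hpi. By 1 hpi its counts were 83 and 92, 241 and 247 and 533 and 602, and by 120 hpi 1871 and 1952, 3551 and 4672 and 4015 and 4686, from a start too low for a fold in WT and R35A cells. Tlr5, the flagellin receptor, had 5 and 8 reads in the WT libraries at 0 hpi and 189 and 138 at 120 hpi (5.02 ± 0.27). Cd180 fell in WT cells at 1 hpi (-1.28 ± 0.06) and rose by 120 hpi (1.54 ± 0.05), and in R35A and R35K cells its 1 hpi values were -0.41 ± 0.05 and 0.13 ± 0.05. Ly86 was at 0.02 ± 0.13 in WT cells at 1 hpi but rose in R35A (0.88 ± 0.11) and R35K cells (2.14 ± 0.10), and by 120 hpi in WT cells (4.68 ± 0.08). Tlr12 had 10 and 15 reads in WT libraries at 0 hpi and 0 and 1 at 120 hpi, and Tlr11 was not tested, with 0 reads in both WT libraries at 0 hpi and 7 and 14 at 120 hpi.

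The counts of other pathway genes in WT cells stand beside 10.0% of all genes that rose and 9.72% that fell at 1 hpi, and 25.2% and 36.5% at 120 hpi. Both ligand carriers, the LPS-binding protein gene Lbp and the scavenger receptor Cd36, rose at 1 hpi in WT cells. Cd36 rose by 1.00 ± 0.05, 1.82 ± 0.05 and 2.99 ± 0.05 at 1 hpi in WT, R35A and R35K cells and Lbp went from 2 and 5 to 10 and 14 reads in WT libraries. Of the 5 adaptors, 0 were called at 1 hpi in WT cells by edgeR, and at 120 hpi 3 rose, Myd88 (1.74 ± 0.06), the adaptor of nearly all TLRs, Ticam1 (2.21 ± 0.08), that of TLR3 and TLR4, and Ticam2 (2.73 ± 0.15), that of TLR4. Sarm1 fell (-1.79 ± 0.50, from 23 and 14 reads to 4 and 4) and Tirap stood at -0.38 ± 0.10. Ticam2 fell at 1 hpi in R35A cells (-1.14 ± 0.21). In R35K cells Myd88 and Ticam1 rose at 1, 6 and 18 hpi, when 16.4%, 17.6% and 19.3% of all genes rose. No adaptor was called at 3 hpi in R35K cells.

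Among 6 genes that fold or move TLRs or serve their endosomes, 4 rose by 120 hpi in WT cells (median 1.05). Unc93b1, the chaperone that takes TLR3, TLR7, TLR9 and TLR13 to endosomes, fell at 1 hpi in WT cells (-0.64 ± 0.04), stood at -0.21 ± 0.04 in R35A cells and rose in R35K cells (0.65 ± 0.04), and by 120 hpi it rose by 2.76, 2.67 and 2.67. Slc15a3, an endosomal transporter, rose in the mutants at 1 hpi (1.94 ± 0.06 and 2.54 ± 0.06). Its relative Slc15a4 and the chaperone gene Cnpy3 rose by 120 hpi in WT cells (0.90 ± 0.06 and 1.21 ± 0.06), while the chaperone genes Hsp90b1 and Cnpy4 stood at 0.31 ± 0.03 and 0.30 ± 0.07. All 4 endosomal proteases that trim the nucleic acid sensors, Ctsb, Ctsl, Ctss and Lgmn, rose at 1 hpi and at 120 hpi in all 3 constructs, with medians of 0.85, 1.95 and 2.89 at 1 hpi in WT, R35A and R35K cells. Ctss rose most, by 1.36 ± 0.05, 3.22 ± 0.04 and 4.24 ± 0.04 at 1 hpi. Ctsl rose by 120 hpi further in R35A than in WT cells, by 1.56 ± 0.04, and Ctsb and Lgmn reached 3.65 ± 0.03 and 4.57 ± 0.04 in WT cells.

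**Figure D5:**
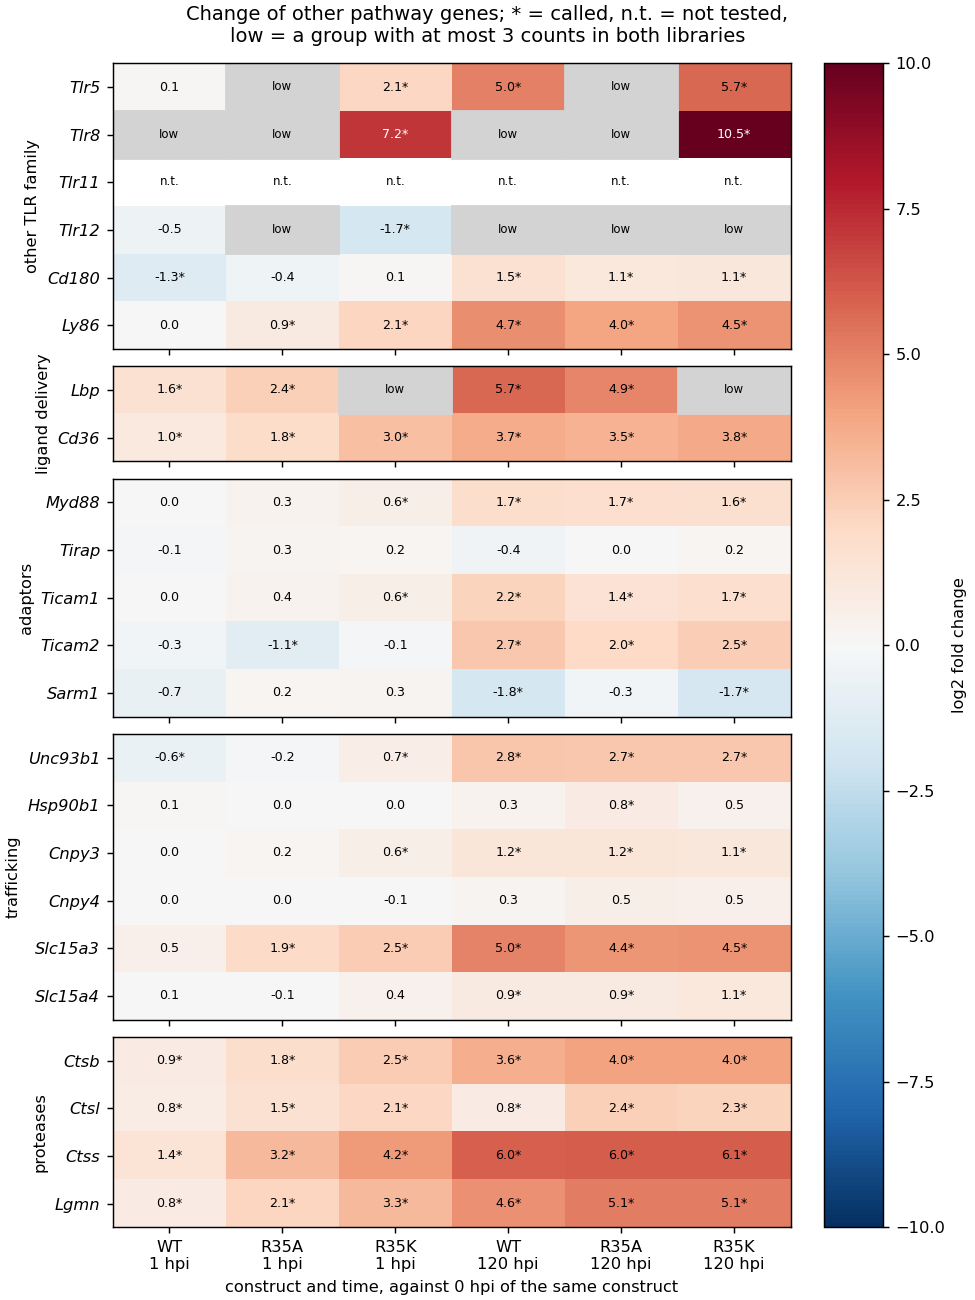
Log2 fold change at 1 hpi and 120 hpi against 0 hpi of the same construct (columns) for other TLR family genes, ligand carriers, adaptors, trafficking genes and proteases (rows), with an asterisk for a called change, n.t. for genes not tested and grey cells where a group had at most 3 counts in both libraries. The proteases are called in every column, from 0.75 for Ctsl at 1 hpi to 5.99 for Ctss at 120 hpi in WT cells, while no adaptor is called at 1 hpi in WT cells.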

How the data were processed

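RNA was sequenced from 36 libraries, and 2 pairs of tables were used, 1 pair for the 24 WT and R35A libraries and 1 for the 12 R35K libraries. Per the labels and the study's methods, the authors made stranded libraries, sequenced 50-base single reads, ran FastQC, used STAR 2.5.0a on mm10 for alignment and counts per gene, and normalized with DESeq2 1.14.1. The annotation release and the strand setting are not given in the sources used here. The deposited counts are whole reads for 40354 genes, with 13044456 to 23131776 per library, and 0 columns were left out. The deposited log2 values (19067 genes) are log2 of count divided by size factor plus 1, recovered within 0.001 for 100% of values. They served only as an alternative.

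Groups were taken from the sample titles. Counts of all 36 libraries were fitted in 1 edgeR model (version 4.0.16, R 4.3.3) with a mean for each of 18 groups, after filterByExpr and TMM, and contrasts were tested by the quasi-likelihood F test, two-sided. The SE is the log2 change divided by the root of F. The common biological coefficient of variation was 3.27%. A call needed 1.5-fold and an adjusted p (Benjamini-Hochberg, 17277 genes) no higher than 0.05. A fold against a group with at most 3 counts in both libraries is not given. Replicates differed by 1.11 to 13.2 chi-square units per gene. The lowest value is near what counting noise alone would give, so this measure cannot tell such replicates from a repeat of one library. Library depth limits the genes with few reads, such as Tlr1 and Tlr3 at 0 hpi.

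Alternatives used limma 3.58.1, DESeq2 1.42.0, other filters and thresholds, each table alone, a replicate block and leaving out each library. The script was tested on simulated counts. One pre-B cell marker is not reported here and was left out of the marker sum. All members are named. For each, the 3 genes of highest correlation are named, as is every gene of pathway lists of up to 6 genes, and in longer lists the 2 called genes that rose most and the 2 that fell most at 120 hpi in WT cells. The Lbp and Tlr8 counts and the markers are shown where a result touches them. The members, the gene lists and the rules were chosen with earlier results of these data known. Gene positions and exon lengths are from GENCODE vM21 (mm10), which held 97.07% of the symbols, and promoter windows from RefSeq (GRCm38.p6).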

Additional observations from a re-analysis of the deposited data

Results flagged for a closer look

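Differences between constructs in their change from 0 hpi were tested directly, and each such difference is listed here. R35A exceeded WT in 7 of the 10 genes after 1 h (5.97% of all genes tested) and 8 after 3 h (5.81%). After 6 and 18 h it was 7 each time (4.19% and 5.62%). At 120 hpi 1 gene was higher (9.63%), Tlr3 with a log2 difference of 1.25, and 1 lower (4.58%), Tlr9 with -0.88. R35K exceeded WT in 9 genes at 1 and at 3 hpi (6.84% and 6.14%). At 6 and at 18 hpi it was 8 (7.66% and 8.91%). Ly96 at 1 hpi and Tlr3 at 3 hpi were not called by DESeq2 or without the low-count filter. At 120 hpi again 1 gene was higher (7.51%), Tlr3 with 1.16, and 1 lower (2.63%), Tlr9 with -0.63. R35K exceeded R35A in 2 genes at 1 hpi (4.15%), Cd14 by 0.81 and Tlr7 by 1.01, and in 6 genes at 6 hpi (4.69%). The R35K libraries form a count table of their own, so table and construct cannot be told apart. The comparisons with WT share the WT libraries and are not independent of each other.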

How the results depend on the processing

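The number of the 10 genes called stayed within 1.5 times its value under the alternatives run, except in these cases. With the 2-fold threshold, 1 gene each was called for R35A minus WT and R35K minus WT at 120 hpi, for R35K minus R35A at 1 and at 6 hpi and for R35A against WT at 120 hpi, and with unadjusted p, 2 genes for R35K minus R35A at 3 hpi. Leaving out single libraries gave 1 to 2 genes for R35A minus WT at 120 hpi, 1 to 4 for R35K minus WT at 120 hpi, and 0 to 3, 0 to 1, 2 to 6 and 0 to 1 for R35K minus R35A at 1, 3, 6 and 18 hpi. The 4 came without the second WT library at 120 hpi or the second R35K library at 0 hpi, and the 1 without the first WT library at 120 hpi or the first R35K library at 0 hpi. A library left out leaves its group with 1 sample, whose spread is then assumed to be that of the other groups. No called value changed sign under any alternative. Of the single values, the 2-fold threshold took 35 of 350 out of the calls, and DESeq2 size factors moved 5, the largest shift of the median of all genes being 0.122 (WT at 18 hpi). Tlr13 for R35K minus R35A at 6 hpi fell below the adjusted threshold with these factors, with DESeq2 and without the filter.

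The replicate numbers did not mark pairs (median correlation of deviations -0.0091 over 153 pairs of groups, 8 above 0.1), and with a replicate block the count called was 6 for WT at 1 hpi, as without it, and 1 value of 350 changed side, Tlr7 for R35K minus WT at 120 hpi (0.72). Counts limit genes with about 10 reads, such as Tlr1 at 0 hpi.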

Other observations

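Of 16 kinases and ligases that relay TLR signals, 1 rose and 0 fell at 1 hpi in WT cells, and 7 rose and 1 fell at 120 hpi (median log2 change 0.40). Of all genes tested, 10.0% rose and 9.72% fell at 1 hpi, and 25.2% rose and 36.5% fell at 120 hpi. Irak2, a kinase-like protein downstream of MyD88, rose most, by 4.20 ± 0.06 on the log2 scale, followed by Ikbke, a kinase upstream of interferon genes, at 3.46 ± 0.06. Traf6, the ubiquitin ligase of this pathway, was the gene that fell, the log2 change being -0.81 ± 0.04 in WT, -1.03 ± 0.04 in R35A and -0.94 ± 0.04 in R35K cells.

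Of 7 inhibitors of the pathway, 5 rose and 1 fell by 120 hpi in WT cells, beside the same shares of all genes. Tnfaip3, the gene of the deubiquitinase A20, rose by 4.11 ± 0.04 and at 1 hpi stood at 0.15 ± 0.04 in WT, 1.33 ± 0.04 in R35A and 1.37 ± 0.04 in R35K cells. Irak3, which restrains IRAK signalling, rose by 2.64 ± 0.08. Il1rl1, the IL-33 receptor, rose at 1 hpi (0.89 ± 0.04) and was lower at 120 hpi (-3.86 ± 0.06), and its course followed the fibroblast marker sum, which was 1089 to 1113, 2239.7 to 2252 and 124 to 146 CPM in WT cells at 0, 1 and 120 hpi. The part of feeder RNA in this value was not tested.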
